A study of Rattus norvegicus with 54 samples.

Results

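The hypoxia and glycolysis genes described here are enzymes, transporters and regulators of glucose breakdown together with well-known targets of the hypoxia-inducible transcription factors. They form a list of 36 genes (the members), and each was represented by its brightest probe set, by mean signal over all 54 arrays, among the probe sets whose leading gene symbol was that gene. Of the 36 genes, 34 were found among 27342 main probe sets, with Pkm listed as Pkm2 and Kdm3a as Jmjd1a. No probe set matched Hk1 or Pgam1 by these rules, and both were not analysed here. The brightest probe sets of Tpi1, Gapdh, Eno1, Pkm and Bnip3 were marked by the file as open to mixed cross-hybridisation, so their values may include closely related sequences.

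Cells take up glucose through membrane transporters, split it to pyruvate by glycolysis, and then either oxidise pyruvate in mitochondria or reduce it to lactate and export it. When oxygen is scarce, prolyl hydroxylases stop marking hypoxia-inducible factor alpha subunits for destruction, and the stabilised factor raises transcription of most glycolytic enzymes, of glucose and lactate transporters, and of secreted factors that act on blood vessels. Neural progenitors in culture are known to lean on glycolysis, and activated macrophages and microglia can raise the same genes without a lack of oxygen.

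RNA of each sample was hybridised to an Affymetrix gene-level array, with 18 groups of 3 arrays. Neural progenitor cell (NPC) cultures of Dark Agouti rats were grown from rats with experimental autoimmune encephalomyelitis (EAE), in which induced immune attack inflames the central nervous system, or from healthy (naive) rats. Their source was the cervical, thoracic or caudal spinal cord or the subventricular zone (SVZ), a germinal zone of the forebrain. All cultures were labelled passage 2, and they were profiled undifferentiated or after 5 days of differentiation. SVZ biopsies of EAE and naive rats, whose labels name no strain, were profiled without culture. Whether the 3 samples of a group are separate animals or separate cultures is not in the labels, and the p-values reflect just the variation among these samples, part or all of which may be technical. The number of arrays limits the precision.

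Values are probe set signals (intensity) as deposited, and differences are on the log2(signal + 16) scale with the standard error of the fit. A probe set was tested where its signal exceeded 50 on at least 3 arrays of the fit, and it was called, with the words rose and fell kept for called genes, at a limma adjusted p of 0.05 or less with a fold of at least 1.2. Median signals per array lay between 51.6 and 120.1, against 19 to 36.1 for background probe sets. Of the 34 genes, 23 exceeded 50 on all 54 arrays, and Car9, a carbonic anhydrase, did so on only 10. Neural stem and progenitor markers summed to 20541 to 23203 in undifferentiated SVZ cultures and to 8431 to 15076 in undifferentiated cord cultures, and microglia and macrophage markers were not absent from cord cultures of EAE rats. In these bulk samples, fewer cells of a type and less RNA per cell cannot be told apart.

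In undifferentiated caudal cord cultures, genes of the hypoxia and glycolysis group were widely higher in cultures of EAE rats. Of the 33 genes tested there, 16 rose and 2 fell, 54.5% of them called, where 17.2% of all 17590 probe sets tested were called. The direction differed from that of the array as a whole: 48.5% of the members rose, against 3.32% of all probe sets, and 6.06% fell, against 13.9%. The median difference of the members was 0.59, and over all probe sets tested it was -0.14 as deposited, 0.02 after quantile normalization and 0.01 after scaling to the 75th percentile. Arrays of EAE and naive cultures did not overlap for 19 members that were higher and 3 that were lower, where this held for 7.98% and 29.5% of all probe sets tested. The 3 lower members were Ndrg1, Pfkfb3 and Car9, of which Car9 lay mostly below the signal limit and was not tested. With all 18 groups in 1 fit 10 members were called, and the methods' t-test called 3, which were Vegfa, Ldha and Slc2a3.

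The largest rise was in Vegfa, the growth factor that drives vessel sprouting, which read 2265, 1942 and 3070.2 in EAE cultures, against 252, 421 and 244 in naive cultures. The lowest EAE array stood above the highest naive array by several fold, with a difference of 2.94 ± 0.23 (adjusted p 3.27e-05). Pdk1, a kinase that switches off pyruvate dehydrogenase and so keeps pyruvate out of the citric acid cycle, read 353, 470.2 and 506 in EAE cultures, against 35.2, 99.8 and 73.2 in naive cultures, a naive array being below the signal limit of 50. Its difference was 2.49 ± 0.26 (adjusted p 0.000174). Ldha, the lactate dehydrogenase subunit that favours lactate formation, read 5218, 5314 and 5152 in EAE cultures and 1926, 2444 and 1877 in naive cultures. The 3 EAE arrays lay close together and apart from the naive ones, with a difference of 1.33 ± 0.15 (adjusted p 0.000225). Ldhb, the subunit that favours pyruvate formation, and Pdk3 were not called, at -0.11 ± 0.19 and 0.13 ± 0.19.

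All 4 transporters rose. Slc2a3, the high-affinity glucose transporter typical of neurons, read 297, 321 and 495 in EAE cultures, against 53.4, 63.6 and 80.1 in naive cultures, a difference of 2.22 ± 0.20 (adjusted p 7.37e-05). Slc2a1, the general glucose transporter, read 909, 936 and 1059 in EAE cultures, against 565, 661 and 463 in naive cultures, a difference of 0.78 ± 0.16 (adjusted p 0.00838). For both glucose transporters every EAE array was above every naive array. Slc16a3, the lactate exporter of glycolytic cells, read 122, 156 and 219 in EAE cultures, against 40.3, 51.3 and 43.6 in naive cultures, a difference of 1.54 ± 0.19 (adjusted p 0.000466). Its naive arrays lay at the signal limit, so its difference is understated on this scale. Slc16a1, which carries lactate in either direction, rose by less, 0.60 ± 0.16 (adjusted p 0.03), a call lost in 6 of 14 alternative settings.

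Of the 12 glycolytic enzymes, 6 rose and none fell. Pfkl, the liver-type subunit of phosphofructokinase, which catalyses the committed step, read 1264, 1173 and 1272 in EAE cultures, against 182, 365 and 252 in naive cultures, a difference of 2.20 ± 0.21 (adjusted p 9.47e-05). The platelet-type subunit gene Pfkp rose by 0.77 ± 0.18 (adjusted p 0.0138), whereas the muscle-type Pfkm was at 0.11 ± 0.19 and was not called. Hk2, the inducible hexokinase that traps glucose in the cell, read 408, 485 and 565 in EAE cultures, against 119, 245 and 171 in naive cultures, a difference of 1.41 ± 0.23 (adjusted p 0.00215). Neither gene's groups overlapped. Tpi1, which interconverts the triose phosphates, read 5910.4, 6555 and 6807 in EAE cultures, against 2231, 3933 and 2909 in naive cultures, a difference of 1.12 ± 0.20 (adjusted p 0.00347), and the other probe set of this gene gave 1.62 ± 0.18. Pgk1, which makes the earlier of the ATP-yielding steps, read 3729, 4855 and 5005 in EAE cultures, against 2496, 2614 and 2579 in naive cultures, a difference of 0.81 ± 0.15 (adjusted p 0.00531). Gpi, which follows hexokinase, rose by 0.49 ± 0.15 (adjusted p 0.0441), a call lost in 9 of 14 alternative settings. Of the enzymes often used as housekeeping references, Gapdh differed by -0.02 ± 0.13, Eno1 by 0.00 ± 0.14 and Aldoa by 0.27 ± 0.15, none of them called, and all 16 Gapdh probe sets lay between -0.06 and -0.01. Eno2, the neuronal enolase, read 1571, 1678 and 2629.6 in EAE cultures and 1111, 1651 and 1075 in naive cultures, which overlapped, at 0.60 ± 0.22 (adjusted p 0.0909), and Pkm, pyruvate kinase, was at 0.29 ± 0.13 (adjusted p 0.142).

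Among the other hypoxia targets the direction was mixed. Bnip3, which marks mitochondria for removal, read 2484, 2721 and 3113 in EAE cultures, against 1113, 1729 and 1250.3 in naive cultures, a difference of 1.03 ± 0.18 (adjusted p 0.0035). The collagen prolyl hydroxylase subunit genes P4ha2 and P4ha1 rose by 1.42 ± 0.27 (adjusted p 0.00513) and 0.99 ± 0.16 (adjusted p 0.00264). P4ha2 read 173, 164 and 379 in EAE cultures, against 59.8, 77.7 and 82.5 in naive cultures, with no overlap. Ndrg1, a stress-responsive gene that is also abundant in myelinating glia, went the other way and read 355, 545 and 547 in EAE cultures, against 1937, 1575 and 1268 in naive cultures. It fell by 1.70 with a standard error of 0.21 (adjusted p 0.000395), and every EAE array was below every naive array. Pfkfb3, whose product makes the activator of phosphofructokinase, fell by 0.74 with a standard error of 0.15 (adjusted p 0.00835), while its relative Pfkfb4 was at -0.15 ± 0.21 and not called.

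The remaining targets were not called in the caudal comparison. Adm, a vasodilator peptide gene, read 122, 125 and 285 in EAE cultures and 259, 215 and 258 in naive cultures, at -0.52 ± 0.26 (adjusted p 0.198). Hmox1, which degrades heme, read 156, 218 and 314 in EAE cultures and 468, 254 and 181 in naive cultures, at -0.32 ± 0.31 (adjusted p 0.515). Both genes overlapped between the groups. Ankrd37 was at 0.59 ± 0.21 (adjusted p 0.073) with no overlap, the oxygen-sensing hydroxylase genes Egln1 and Egln3 at 0.04 ± 0.16 and 0.28 ± 0.24, and the histone demethylase gene Kdm3a at 0.33 ± 0.17. Car9 was too dim to be tested.

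**Figure D1:**
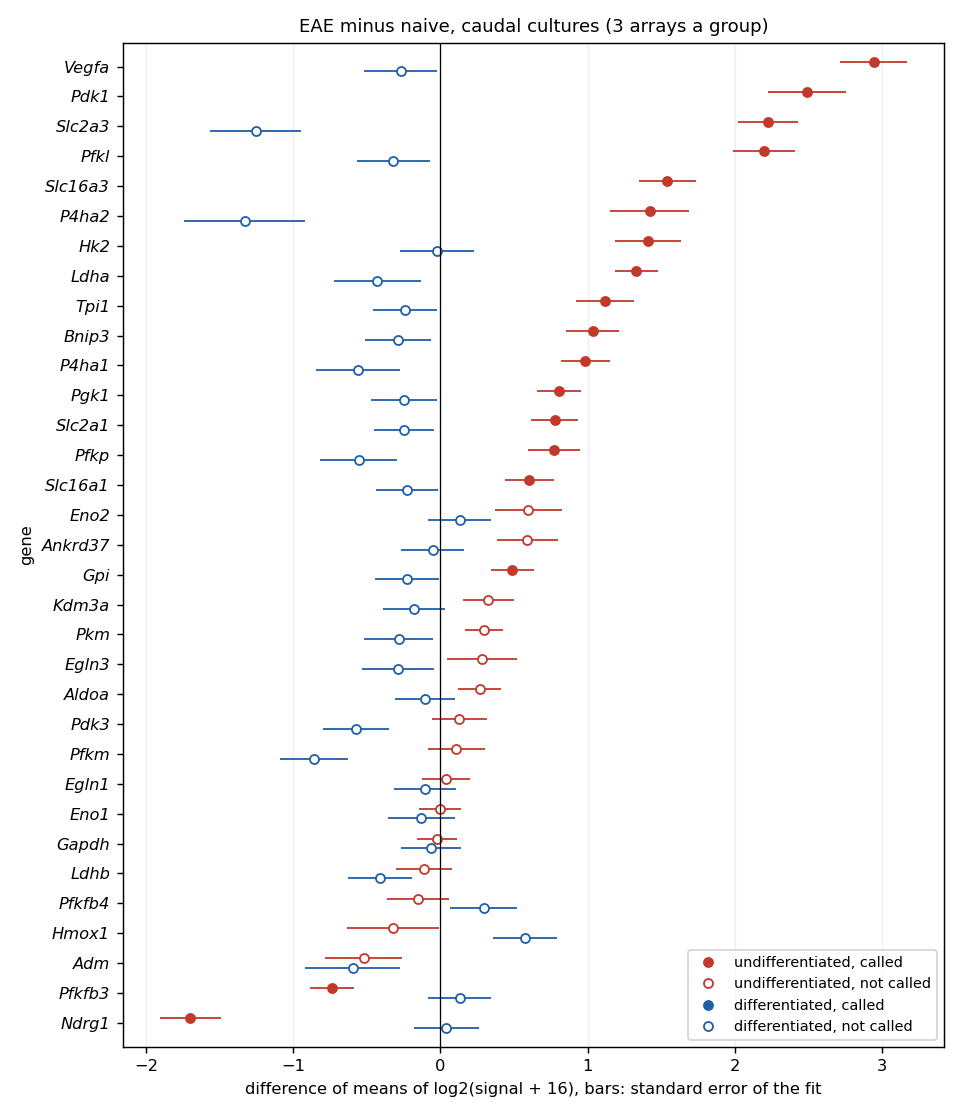
Difference between EAE and naive caudal cultures for each gene, in undifferentiated cultures (red) and differentiated cultures (blue), on the log2(signal + 16) scale. Bars are standard errors of the fit with 3 arrays a group, filled points are called genes, and genes without a blue point were not tested after differentiation. In undifferentiated cultures the points run between -1.70 for Ndrg1 and 2.94 for Vegfa, with 18 called, and no differentiated point is called.

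Other markers moved with this comparison. All 15 microglia and macrophage markers rose in caudal EAE cultures, with a summed signal of 5296 to 7096 in EAE cultures, against 198 to 408 in naive cultures. Of the 10 fibroblast and pericyte markers 8 fell, with sums of 1354 to 4874 in EAE cultures, against 5875 to 12237 in naive cultures, and of 10 oligodendrocyte and myelin markers 8 fell, with sums of 27299 to 30517 in EAE cultures and 42675 to 48500 in naive cultures. The part of these cells in the rise of the glycolytic genes was not tested. Microglia and macrophage markers were also high in EAE cultures of the cervical and thoracic cord, at 3472 to 9552 and 2593 to 10266, against 300 to 614 and 222 to 322 in naive cultures. In the cervical and thoracic comparisons limma called 0 of 17302 and 0 of 17676 probe sets tested. Neither the hypoxia and glycolysis genes nor these markers were therefore called there, so those comparisons could not test the part of these cells. Cell cycle genes summed to 5845 to 14783 in caudal EAE cultures and 5384 to 6673 in naive ones.

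Lists of neighbouring pathways differed in their counts in the caudal comparison. Of 22 other glycolysis and glucose handling genes tested, 2 rose and 2 fell: Pgm1, a phosphoglucomutase, by 0.94 ± 0.15 (adjusted p 0.00197) and Slc2a8 by 0.53 ± 0.14 (adjusted p 0.0236) upwards, Galm and Bpgm downwards at -1.07 ± 0.18 and -0.54 ± 0.16. Of 30 other hypoxia response genes tested, 11 rose and 4 fell, among them the carbonic anhydrase gene Car12 at 3.61 ± 0.27 (adjusted p 2.71e-05), the adenylate kinase gene Ak4 at 2.10 ± 0.14 (adjusted p 1.53e-05), the glycogen synthase gene Gys1 at 0.92 ± 0.14 and the transferrin receptor gene Tfrc at -1.29 ± 0.19. None of the 18 citric acid cycle and pyruvate dehydrogenase genes was called by limma, with 1 at an unadjusted p under 0.05. Hif1a, the alpha subunit whose targets these are, fell by 0.88 with a standard error of 0.14 (adjusted p 0.00209) at the RNA level, although its activity is set mostly through protein stability. Of 12 NRF2 and heme handling genes, which respond to oxidants, 6 fell, led by Slc7a11 at -2.28 ± 0.29.

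Promoter letters are shown for 5 members that rose, picked because they hold the core of a hypoxia response element near the start of transcription. Those of Vegfa, which rose most, are shown as well. Each window runs over 300 bases, 250 before to 50 after the annotated start, 5′ to 3′ on the gene's strand, from RefSeq on assembly GRCr8. Capitals mark every match to ACGTG or GCGTG on either strand, so CACGT and CACGC are marked too, and CACGTG counts as 2 overlapping matches.
Ldha: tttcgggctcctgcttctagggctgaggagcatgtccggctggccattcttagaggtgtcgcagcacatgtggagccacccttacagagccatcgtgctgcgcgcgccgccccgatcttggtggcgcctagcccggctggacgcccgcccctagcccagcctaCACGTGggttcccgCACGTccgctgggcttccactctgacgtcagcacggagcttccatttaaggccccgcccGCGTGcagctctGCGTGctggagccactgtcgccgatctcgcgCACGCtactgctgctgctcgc
Pdk1: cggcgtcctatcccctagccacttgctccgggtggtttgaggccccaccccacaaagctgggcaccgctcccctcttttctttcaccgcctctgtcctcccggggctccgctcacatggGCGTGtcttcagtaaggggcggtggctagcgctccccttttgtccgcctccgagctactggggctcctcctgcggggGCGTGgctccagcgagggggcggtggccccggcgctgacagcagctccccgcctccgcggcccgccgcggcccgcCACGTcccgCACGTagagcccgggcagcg
Slc2a1: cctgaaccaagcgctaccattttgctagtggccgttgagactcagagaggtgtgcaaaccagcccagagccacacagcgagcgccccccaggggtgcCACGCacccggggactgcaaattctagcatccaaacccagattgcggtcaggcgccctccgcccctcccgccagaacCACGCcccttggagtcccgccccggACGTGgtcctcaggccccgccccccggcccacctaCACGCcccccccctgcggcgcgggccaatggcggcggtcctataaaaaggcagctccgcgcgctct
P4ha2: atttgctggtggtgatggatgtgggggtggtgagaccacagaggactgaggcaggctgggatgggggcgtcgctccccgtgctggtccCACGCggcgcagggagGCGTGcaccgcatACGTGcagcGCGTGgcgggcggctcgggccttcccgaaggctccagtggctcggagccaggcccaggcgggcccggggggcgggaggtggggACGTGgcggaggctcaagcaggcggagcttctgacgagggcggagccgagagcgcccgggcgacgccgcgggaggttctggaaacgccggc
Pfkl: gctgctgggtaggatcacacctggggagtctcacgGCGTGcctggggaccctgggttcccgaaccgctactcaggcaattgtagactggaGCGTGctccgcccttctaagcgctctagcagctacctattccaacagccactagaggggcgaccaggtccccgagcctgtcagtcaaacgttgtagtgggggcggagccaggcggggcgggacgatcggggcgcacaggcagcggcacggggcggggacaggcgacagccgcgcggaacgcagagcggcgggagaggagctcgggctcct
Vegfa: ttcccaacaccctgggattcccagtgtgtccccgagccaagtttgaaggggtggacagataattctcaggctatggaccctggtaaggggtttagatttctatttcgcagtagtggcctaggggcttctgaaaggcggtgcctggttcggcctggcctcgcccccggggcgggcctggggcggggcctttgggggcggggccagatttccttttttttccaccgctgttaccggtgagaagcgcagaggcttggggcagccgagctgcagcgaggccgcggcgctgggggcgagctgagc

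The windows lie on the plus strand at chr1:106507842-106508141 (Ldha), chr3:77113264-77113563 (Pdk1), chr5:138002272-138002571 (Slc2a1), chr10:38743644-38743943 (P4ha2), chr20:10663715-10664014 (Pfkl) and chr9:22452604-22452903 (Vegfa). Ldha held 6 matches, P4ha2 held 5, Pdk1 and Slc2a1 held 4 each, Pfkl held 2 and Vegfa held 0, which says only that these letters are not in this window. Of the 34 genes, 30 had a promoter entry, and 20 of them (66.7%) held at least 1 match, where 41.6% of all 33469 promoters did. Of the 14 members with an entry that rose in caudal EAE cultures, 10 held a match, which was not tested against the members that did not rise. A match describes the letters and is not a binding site, and the members were chosen as known hypoxia targets in large part.

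The same genes were not called in the other undifferentiated cultures, where in several groups the 3 arrays differed widely from each other. In cervical cultures limma called 0 of 33 members, with 0 at an unadjusted p under 0.05 where 10.8% of all probe sets tested had one. In thoracic cultures it called 0 of 33, with 2 at an unadjusted p under 0.05 (6.31% of all probe sets). In SVZ cultures it called 0 of 31, with 3 at an unadjusted p under 0.05 (12% of all probe sets). In each of these comparisons 0% of all probe sets tested were called, and the methods' t-test also called 0 members. Arrays of cervical and of thoracic EAE and naive cultures overlapped for all 34 members. The sign of the difference was negative for 2 of 33 members in cervical, 9 of 33 in thoracic and 14 of 31 in SVZ cultures. Members varied together between arrays, so these sign counts are descriptions.

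Vegfa read 327, 4509 and 3715 in cervical EAE cultures, against 282, 2642 and 1892 in cervical naive cultures. It read 597, 3178 and 2485 in thoracic EAE cultures, against 505, 1422 and 1243 in thoracic naive cultures. Replicate 1 was the low array of all 4 groups, and the other 2 arrays of each group were well above it. The differences were imprecise, 0.65 ± 1.24 in cervical and 0.79 ± 0.69 in thoracic cultures. Fibroblast and pericyte markers summed to 6590, 2171 and 45994 on cervical naive replicates 1, 2 and 3, and to 49820, 1913 and 56471 on thoracic ones. Cell cycle genes summed to 11723, 12474 and 1194, and to 4174, 15206 and 2413. Cervical naive replicate 3 and thoracic naive replicate 2 were among the 5 arrays least like their group. The part of these differences in the spread was not tested. Pdk1 read 85.7, 728 and 596 in cervical EAE cultures and 80.7, 530.1 and 189 in naive ones. Slc2a3 read 111.7, 925 and 551 in cervical EAE cultures and 74.6, 406 and 718 in naive ones. Both followed Vegfa in having replicate 1 lowest in EAE and in naive cultures.

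The low array was low for nearly the whole group of genes in EAE cultures. Replicate 1 was the lowest of 3 for 32 of 34 members in cervical EAE cultures, for 32 in thoracic EAE cultures, for 23 in cervical naive and for 20 in thoracic naive cultures. Replicate numbers are names, and the labels do not say what samples of 1 number share, but over all probe sets the same-numbered arrays of cervical and thoracic EAE cultures deviated together from their group means (correlations of 0.402 to 0.641). The median range within a group, on the log2 scale, was 1.36 for members in cervical EAE cultures and 1.40 in thoracic EAE cultures, where it was 0.333 and 0.353 over all probe sets above the signal limit. In cervical and thoracic naive cultures it was 1.10 and 0.897, against 0.498 and 0.478 over all probe sets. In caudal cultures it was 0.398 in EAE and 0.448 in naive arrays, against 0.302 and 0.328 over all probe sets. The caudal groups were thus the tight ones among cord cultures.

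SVZ cultures of EAE rats held another such array. Replicate 3 was the lowest for 30 of 34 members there. Slc2a1 read 1097, 1119 and 71.4 in SVZ EAE cultures, against 860.1, 676 and 952 in SVZ naive cultures. Hk2 read 376, 386 and 57.2 in SVZ EAE cultures and 269.6, 205 and 327 in naive ones. On these 2 genes replicate 3 was several times below the other EAE arrays and below all naive arrays, while the other EAE arrays were above all naive arrays. Bnip3 read 1732, 1639 and 685 in SVZ EAE cultures and 1373, 1608 and 1600.4 in naive ones, with the same low array. Adm had the smallest p of the members in SVZ cultures, with 876, 859 and 607 in EAE cultures, against 318, 425 and 529 in naive cultures. Its groups did not overlap, as was so upwards for 19.4% of all probe sets tested, and the difference of 0.87 ± 0.19 had an adjusted p of 0.366.

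**Figure D2:**
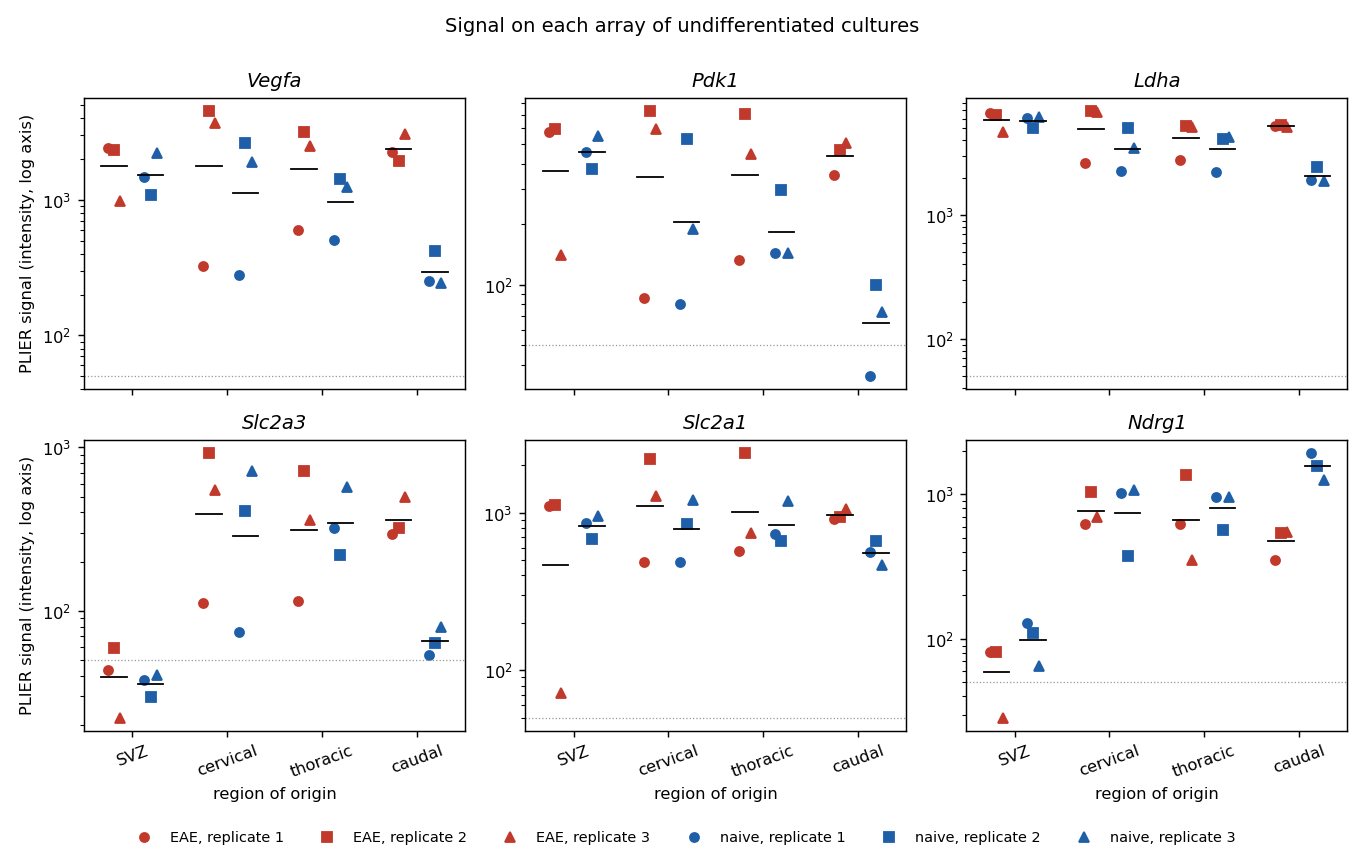
Signal on each array of undifferentiated cultures for 6 genes, on a log axis, with EAE (red) left of naive (blue) in each region. Marker shape gives the replicate number, the short line the mean on the log2(signal + 16) scale, and the dotted line a signal of 50. Vegfa, Pdk1 and Slc2a3 have their lowest EAE value on replicate 1 in cervical and thoracic cultures, and in caudal cultures the EAE and naive arrays of all 6 genes stand apart.

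Taking each array's deviation from its own group mean removes the study's groups and leaves this shared variation. Over the 24 undifferentiated arrays the deviations of the other 33 members correlated with those of Vegfa at a median Pearson r of 0.762, with 26 above 0.5 and 1, Ldhb, below 0. The median Spearman rho was 0.697, and the median r was 0.716 without the 2 arrays on which Vegfa deviated most. Over all probe sets above the signal limit the median r was -0.03, and 4.25% exceeded 0.5. The closest were Ldha at 0.956, Tpi1 at 0.918 and Pdk1 at 0.910, and the least close, besides Ldhb at -0.149, were Ndrg1 at 0.023 and Car9 at 0.151. The points share arrays and a subtracted mean within each group of 3, so these are descriptions.

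**Figure D3:**
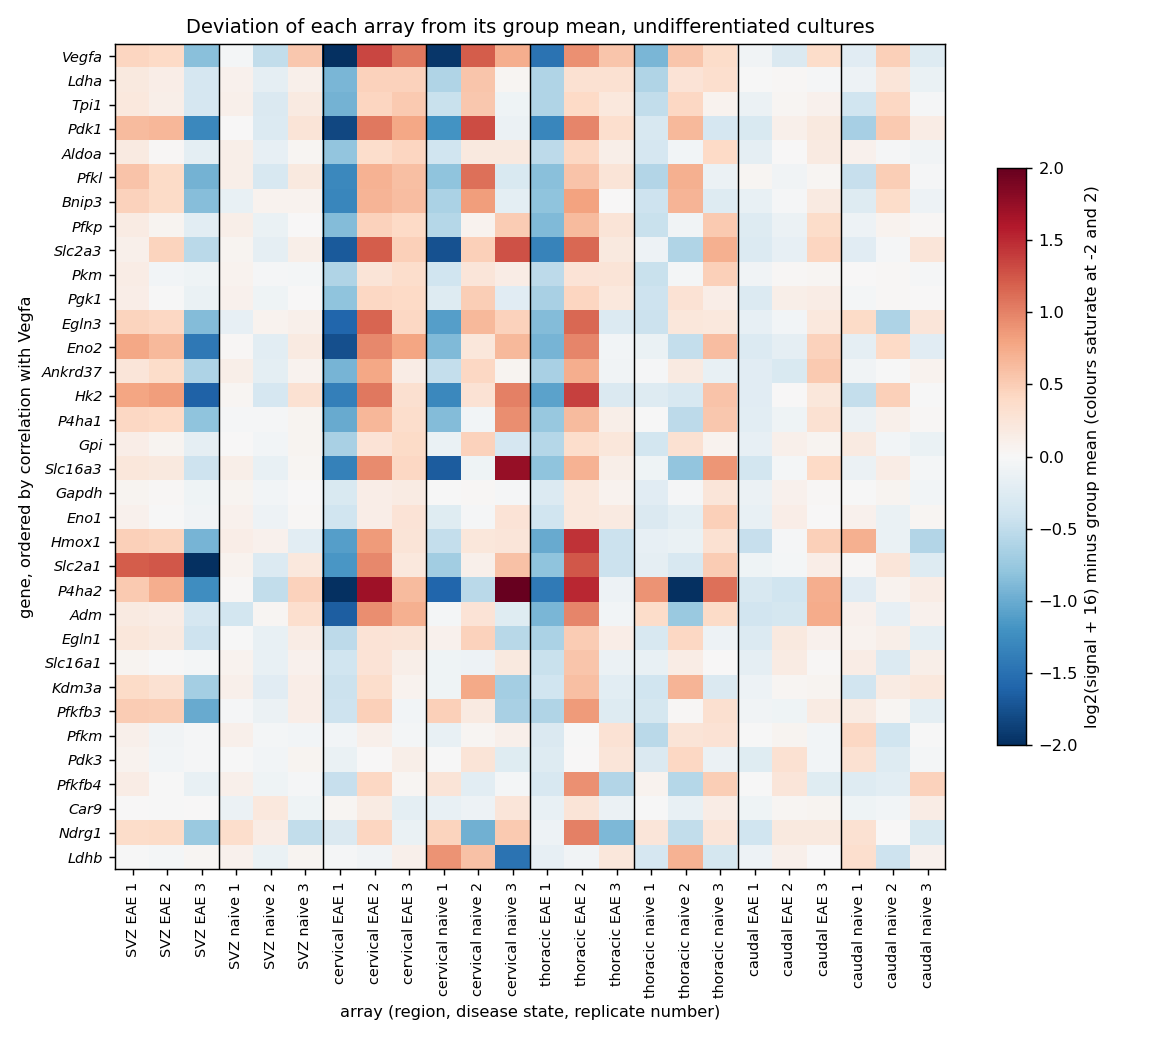
Deviation of each undifferentiated array from its group mean for the 34 genes, on the log2(signal + 16) scale, with genes ordered by their correlation with Vegfa and arrays grouped by region with EAE before naive. Red is above and blue below the group mean. The columns of cervical EAE 1, thoracic EAE 1, cervical naive 1, thoracic naive 1 and SVZ EAE 3 are blue for most genes, and the caudal columns are pale.

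In differentiated cultures the members followed Vegfa less closely, with a median r of 0.233 over 24 arrays. Of 33 members 12 were above 0.5 and 14 below 0, where 12% of all probe sets exceeded 0.5. Vegfa itself was dim on these arrays, at 43.2 to 169.6, which can lower r. Whether the members varied together less was therefore not shown. Among undifferentiated EAE cultures, the microglia and macrophage sum ordered the arrays as Vegfa did in some groups and not in others. In cervical EAE cultures the microglia and macrophage sum was 3472, 9552 and 6398 on replicates 1, 2 and 3, in the order of Vegfa, but in thoracic EAE cultures it was 4009, 10266 and 2593, where Vegfa was lowest on replicate 1. The SVZ EAE arrays had low sums of 208, 194 and 183, in the order of Vegfa. The part of the cell types in the shared variation was not tested.

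As the mean effect over the 4 regions, EAE gave 3 called members in undifferentiated cultures, 8.82% of 34, where 6.23% of all probe sets were called. Pfkl rose by 0.92 ± 0.27 (adjusted p 0.0457), Tpi1 by 0.60 ± 0.18 (adjusted p 0.0463) and Slc16a1 by 0.34 ± 0.10 (adjusted p 0.0498). Each of these calls was lost on leaving out any of the replicate numbers. With a random block of disease state and replicate number, added after seeing the data because same-numbered arrays of some regions deviated together, 0 members were called. The sign was positive for 30 of 34 members, with a median of 0.33, against -0.04 over all probe sets tested. When the EAE effect in caudal cultures was set against its mean in the other 3 regions, no member was called by limma, with 8 at an unadjusted p under 0.05, where 4.47% of all probe sets were called and 19.4% had such a p. Vegfa differed by 2.39 ± 1.00 (adjusted p 0.189) and Slc2a3 by 2.09 ± 0.83 (adjusted p 0.16) in that contrast. The caudal rise was therefore not shown to be larger than in the other regions.

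After 5 days of differentiation no member was called between EAE and naive caudal cultures. Vegfa read 81.4, 43.2 and 89 in differentiated caudal EAE cultures, against 115, 66.8 and 81.5 in naive ones, and Ldha read 681, 969 and 1276 in EAE cultures, against 1954, 1445 and 732 in naive ones. Both genes overlapped between the groups. Limma called 0 of 31 members, with 6 at an unadjusted p under 0.05, where 0.89% of all probe sets were called and 9.35% had such a p, and the methods' t-test called 0. Leaving out naive replicate 3 gave 6 calls. The sign was negative for 26 of 31 members, with a median of -0.25, where it was -0.13 over all probe sets. Microglia and macrophage markers summed to 3171 to 6563 in EAE cultures. In naive cultures they summed to 209, 274 and 2626 on replicates 1, 2 and 3.

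The change of the caudal effect with differentiation was tested as a contrast, and 13 of 33 members (39.4%) were called, where 3.11% of all probe sets were, 1.49% upwards and 1.63% downwards. The EAE effect was larger in undifferentiated cultures for 12, by 3.48 ± 0.46 for Slc2a3 (adjusted p 0.000949), 3.21 ± 0.37 for Vegfa (adjusted p 0.000435), 2.82 ± 0.42 for Pdk1 (adjusted p 0.00184) and 2.75 ± 0.66 for P4ha2 (adjusted p 0.0315). Pfkl followed at 2.52 ± 0.36, and Ldha, Slc16a3, P4ha1, Tpi1, Bnip3, Pgk1 and Slc2a1 lay between 1.76 and 1.02. Ndrg1 was the member called in the other direction, at -1.74 ± 0.31 (adjusted p 0.00647). Pdk1 and Slc16a3 entered this contrast through their undifferentiated arrays and were too dim to be tested between differentiated caudal cultures. There Pdk1 read 41.7, 22.1 and 56.5 in EAE cultures, against 79.9, 48.2 and 36 in naive cultures. Slc16a3 read 43.1, 29.8 and 54.3, against 41.7, 53.3 and 33.3. The sizes of their contrasts are therefore limited by values near or below the signal limit. With all 18 groups in 1 fit 1 call was left, and leaving out replicate number 1 or 2 left 5 and 8.

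In the other differentiated cultures and in biopsies, limma called no member between EAE and naive rats. It called 0 of 30 in SVZ cultures with 4 at an unadjusted p under 0.05, where 0% of all probe sets were called and 18.5% had such a p. It called 0 of 31 in cervical cultures with 3 at an unadjusted p under 0.05, against 0.133% of all probe sets called and 3.97% with such a p. It called 0 of 33 in thoracic cultures with 4 at an unadjusted p under 0.05, against 0% and 6.11% of all probe sets. In SVZ biopsies it called 0 of 32 with 1 at an unadjusted p under 0.05, against 0.0151% and 3.75%, and the methods' t-test called 0 in all 4. Across the 4 regions 2 members were called, 6.06% of 33, where 0.779% of all probe sets were. Pfkfb4, a regulator of phosphofructokinase, rose by 0.70 ± 0.15 (adjusted p 0.0224) and Pfkm fell by 0.78 with a standard error of 0.13 (adjusted p 0.00301). In SVZ cultures both genes overlapped, and Pfkm read 2967, 3032 and 3211 in EAE and 3265, 2786 and 3413 in naive cultures. In thoracic cultures, where both genes differed most, Pfkfb4 read 924, 1133 and 747 in EAE cultures, against 362, 421 and 133.6 in naive cultures. Pfkm read 150.5, 147 and 137 there in EAE cultures, against 445, 259 and 523 in naive cultures. The groups did not overlap for either gene. Naive replicate 3, the lowest array for Pfkfb4 and the highest for Pfkm, had the lowest median signal of all arrays (51.6) and was among the 5 arrays least like their group, and its fibroblast and pericyte markers summed to 46361, against 19783 and 1886 on naive replicates 1 and 2. Both calls of the 4-region mean held without those 5 arrays. Neither held on leaving out replicate number 1 or 2, that of Pfkm was also lost without number 3, and that of Pfkfb4 was lost with the random block, which left 1 call.

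As the mean over 4 regions, most of the genes were lower after differentiation in cultures of both disease states. In EAE cultures 24 of 34 members fell and 5 rose (85.3% called), where 52.1% of all probe sets were called, 34.1% falling and 18.1% rising. In naive cultures 20 of 33 fell and 5 rose (75.8% called), where 33.5% of all probe sets were called, 26.8% falling and 6.64% rising. Leaving out replicate number 2 left 11 calls in naive cultures. The members' split became 12 falling and 7 rising after quantile normalization and 10 and 7 after scaling to the 75th percentile. The median over all probe sets tested in naive cultures was -0.15 as deposited and 0.03 after that scaling. The EAE and naive effects had the same sign for 32 of 33 members, with 20 falling and 4 rising in both, from separate arrays.

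Vegfa fell furthest of the members in both. It fell by 3.99 with a standard error of 0.33 in EAE cultures (adjusted p 3.43e-10) and fell by 2.87 with a standard error of 0.29 in naive cultures (adjusted p 8.97e-07). In cervical EAE cultures it read 90.3, 92.1 and 91 after differentiation, against 327, 4509 and 3715 undifferentiated. In SVZ naive cultures it read 168, 146 and 166 after differentiation, against 1480.1, 1081 and 2216 undifferentiated. No differentiated array reached an undifferentiated one of its group. Of the 12 glycolytic enzymes 11 fell in EAE and 10 in naive cultures, led by Pfkp at -1.99 ± 0.15 in EAE and -1.27 ± 0.19 in naive cultures. Ldha was at -1.95 ± 0.15 in EAE and -0.98 ± 0.16 in naive cultures, and all 4 genes of lactate and pyruvate handling fell in EAE cultures and 3 of 4 in naive cultures. Eno2 was called in neither, at 0.10 ± 0.28 and 0.55 ± 0.25. Gapdh fell by 0.29 with a standard error of 0.06 in EAE cultures and was not called in naive ones, at -0.14 ± 0.06.

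SVZ cultures did not follow the mean for every gene. In SVZ EAE cultures Pdk1 read 1027, 1098 and 925 after differentiation, against 579, 594 and 141.5 undifferentiated, the last on replicate 3. The difference was 1.42, where the cervical, thoracic and caudal EAE differences lay between -3.07 and -2.15. Pdk3 was at 1.00 and Pfkm at 0.58 in SVZ EAE cultures, where both were negative in the 3 cord regions. All 3 genes were called as falling in the 4-region mean of EAE cultures, and their SVZ differences were not tested on their own.

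A minority rose with differentiation. Ndrg1 rose by 1.69 ± 0.17 in EAE (adjusted p 1.43e-08) and 1.08 ± 0.31 in naive cultures (adjusted p 0.0103), and in caudal EAE cultures it read 3524, 2505 and 2488 after differentiation, against 355, 545 and 547 undifferentiated. Slc16a1, Pfkfb4 and Hmox1 also rose in both, by 0.55 ± 0.09, 0.91 ± 0.14 and 0.72 ± 0.24 in EAE cultures and by 0.79 ± 0.09, 0.45 ± 0.17 and 0.59 ± 0.23 in naive cultures. Pfkfb3 rose in EAE cultures at 0.81 ± 0.17, and Adm in naive cultures at 1.05 ± 0.36. Of 10 oligodendrocyte and myelin markers 8 rose in EAE and 4 in naive cultures, and of 11 cell cycle genes 11 and 10 fell. The part of those changes in cell state in the fall of the glycolytic genes was not tested.

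**Figure D4:**
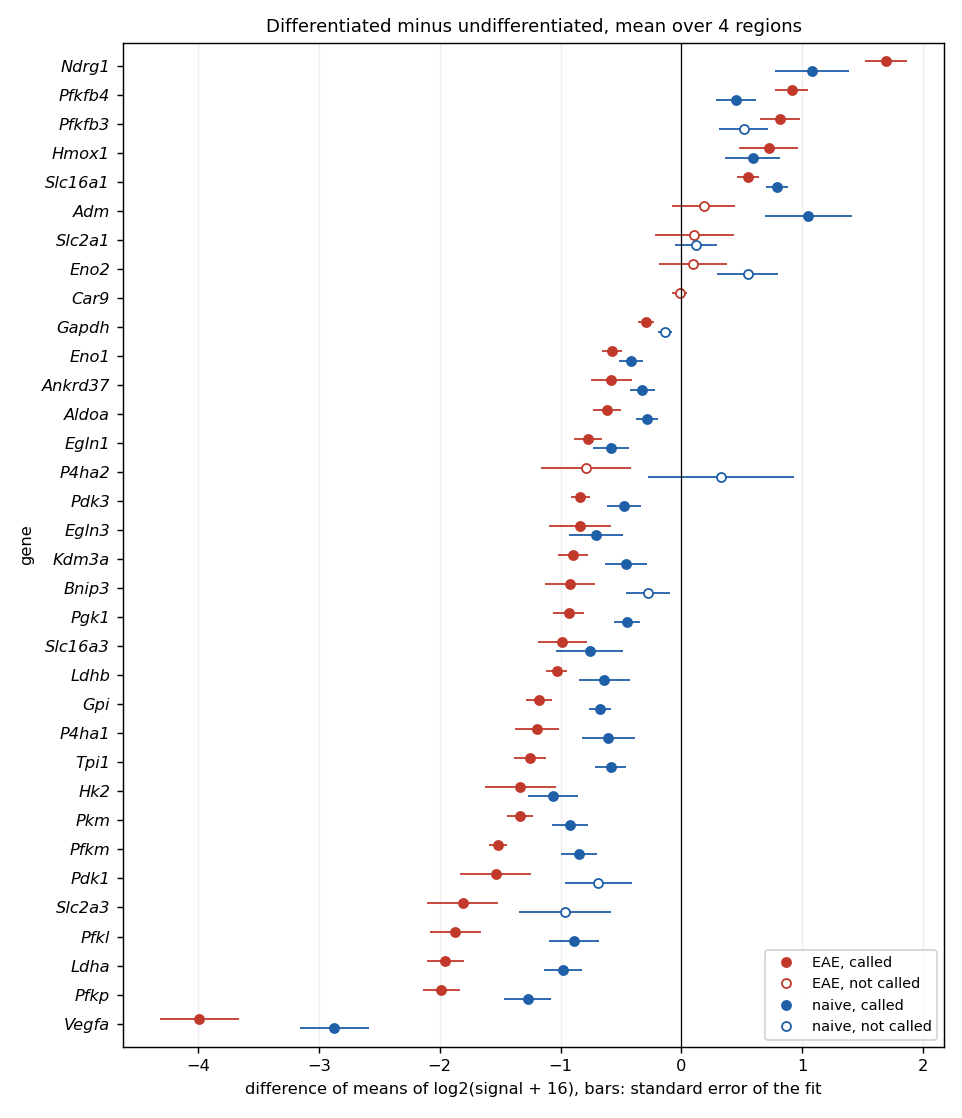
Differentiated minus undifferentiated for each gene as the mean over 4 regions, in EAE (red) and naive (blue) cultures, on the log2(signal + 16) scale. Bars are standard errors of the fit and filled points are called genes. Vegfa is the lowest point in both, at -3.99 in EAE and -2.87 in naive cultures, and Ndrg1 the highest, at 1.69 and 1.08.

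SVZ and cord cultures differed in 3 members in the size of the differentiation effect among naive cultures, 9.09% of 33, where 8.48% of all probe sets were called. The cord effect minus the SVZ effect was -2.16 ± 0.34 for Pfkm (adjusted p 0.000395), -1.49 ± 0.44 for Pfkp (adjusted p 0.0428) and -1.39 ± 0.33 for Pdk3 (adjusted p 0.0122). Pfkm read 361, 219 and 209 in differentiated caudal naive cultures, against 1009, 567 and 746 undifferentiated. In SVZ naive cultures it read 3265, 2786 and 3413 differentiated, against 1969, 1785 and 1766 undifferentiated. The muscle-type subunit was thus lower after differentiation in caudal cultures and higher after it in SVZ cultures. The count was 12 without the 5 arrays least like their group. Of the 8 astrocyte markers 3 were called in the same contrast, all negative. Their sum was 30666 to 37503 in differentiated SVZ naive cultures, against 13389 to 13951 in undifferentiated ones, and 3446 to 8555 in differentiated caudal naive cultures, against 7274 to 13068 in undifferentiated ones. The part of these cells in the 3 differences was not tested.

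Cord and SVZ cultures were also compared, and in EAE rats the share of members called was close to that of all probe sets. Cord against SVZ gave 8 higher and 7 lower of 33 members in EAE rats (45.5%, where 47.7% of all probe sets were called, 18.5% higher and 29.2% lower), and 5 higher and 10 lower of 33 in naive rats (45.5%, where 22.9% were called, 12.2% higher and 10.6% lower). Leaving out replicate number 1 reduced the naive count to 4. Ndrg1 was higher in cord by 3.10 ± 0.32 in EAE (adjusted p 1.57e-06) and 3.13 ± 0.33 in naive cultures (adjusted p 0.000121). Slc2a3 was higher by 2.74 ± 0.51 in EAE and 2.00 ± 0.51 in naive cultures, and its 6 SVZ arrays lay between 22.2 and 59.0, mostly below the signal limit. Eno2 was higher by 2.48 ± 0.56 in EAE and 1.37 ± 0.32 in naive cultures. Lower in cord were Egln3, at -2.06 ± 0.48 in EAE and -2.29 ± 0.35 in naive cultures, Adm, at -1.95 ± 0.47 and -1.41 ± 0.24, and Pfkm, at -1.52 ± 0.12 and -1.17 ± 0.20. Of 33 members 23 had the same sign in both disease states, with 5 higher and 5 lower called in both. Oligodendrocyte and myelin markers were higher in cord for 10 of 10 genes in both disease states. Microglia and macrophage markers summed to 2593 to 10266 in EAE cord cultures, against 183 to 208 in EAE SVZ cultures. Fibroblast and pericyte markers summed to 1354 to 14615 in EAE cord cultures, against 1375 to 1496 in EAE SVZ cultures, and to 1913 to 56471 in naive cord cultures, against 1247 to 1423 in naive SVZ cultures. Astrocyte markers summed to 5488 to 8192 in EAE cord cultures, against 16097 to 17125 in EAE SVZ cultures. The part of these cells in the differences between regions was not tested.

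Tissue and culture differed in most probe sets of the array, and in EAE rats the members' share was near that background. SVZ biopsies against undifferentiated SVZ cultures gave 8 higher and 20 lower of 33 members in EAE rats (84.8%, where 79.7% of all probe sets were called, 35.4% higher and 44.4% lower) and 8 higher and 22 lower of 32 in naive rats (93.8%, where 76.9% were called, 33.2% higher and 43.7% lower). The sign was the same in both disease states for 32 of 32 members tested in both, with 7 higher and 19 lower called in both. The median over all probe sets tested in naive samples was -0.10 as deposited and 0.12 after scaling to the 75th percentile, against -0.91 for the members as deposited.

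Vegfa read 294, 314 and 355 in EAE biopsies, against 2408, 2343 and 987 in EAE cultures, a difference of -2.41 ± 0.26 (adjusted p 2.31e-06). Ldha read 969, 1043 and 1192 in EAE biopsies, against 6684, 6452 and 4652 in EAE cultures, a difference of -2.44 ± 0.14 (adjusted p 5.82e-09). Adm and Hmox1 lay below the signal limit in biopsies: Adm read 30, 43.8 and 38.1 in EAE biopsies, against 876, 859 and 607 in EAE cultures. Hmox1 read 31.1, 22.1 and 34.4 in EAE biopsies, against 445, 431 and 158 in EAE cultures. The differences of these 2 genes, -3.89 ± 0.15 and -2.88 ± 0.29, are understated because the biopsy values lay below the signal limit. In naive samples the same 4 genes were at -2.24 ± 0.20, -2.48 ± 0.13, -3.11 ± 0.18 and -3.24 ± 0.11. Egln3, P4ha1, Egln1, Eno1 and Pgk1 were lower in biopsies of both disease states, between -2.47 and -1.29.

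Slc2a3, Eno2 and Ndrg1 were the members most raised in tissue. Slc2a3 read 543, 599 and 623 in EAE biopsies, against 43.2, 59 and 22.2 in EAE cultures. The limma difference was 3.45 ± 0.19 (adjusted p 3.72e-09), which is understated because the culture values lay mostly below the signal limit. Eno2 read 2638, 3157 and 2919.9 in EAE biopsies, against 637, 581 and 125 in EAE cultures, a difference of 2.94 ± 0.42. Ndrg1 read 522, 706 and 555 in EAE biopsies, against 80.8, 81 and 28.5 in EAE cultures, a difference of 3.02 ± 0.25. The groups did not overlap for any of the 3 genes, and in naive samples the differences were 3.47 ± 0.12, 2.49 ± 0.14 and 2.31 ± 0.19. Neuron markers summed to 18626 to 21812 in EAE biopsies, against 978 to 1083 in EAE cultures, and oligodendrocyte and myelin markers to 16059 to 19325, against 3970 to 5874. Microglia and macrophage markers summed to 4611 to 5525 in EAE biopsies, against 183 to 208 in EAE cultures. The part of these cells in these 3 differences was not tested. Between EAE and naive biopsies no member was called, and the sign was negative for 3 of 32. The range over the 6 biopsy arrays was 289 to 355 for Vegfa and 854 to 1192 for Ldha.

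**Figure D5:**
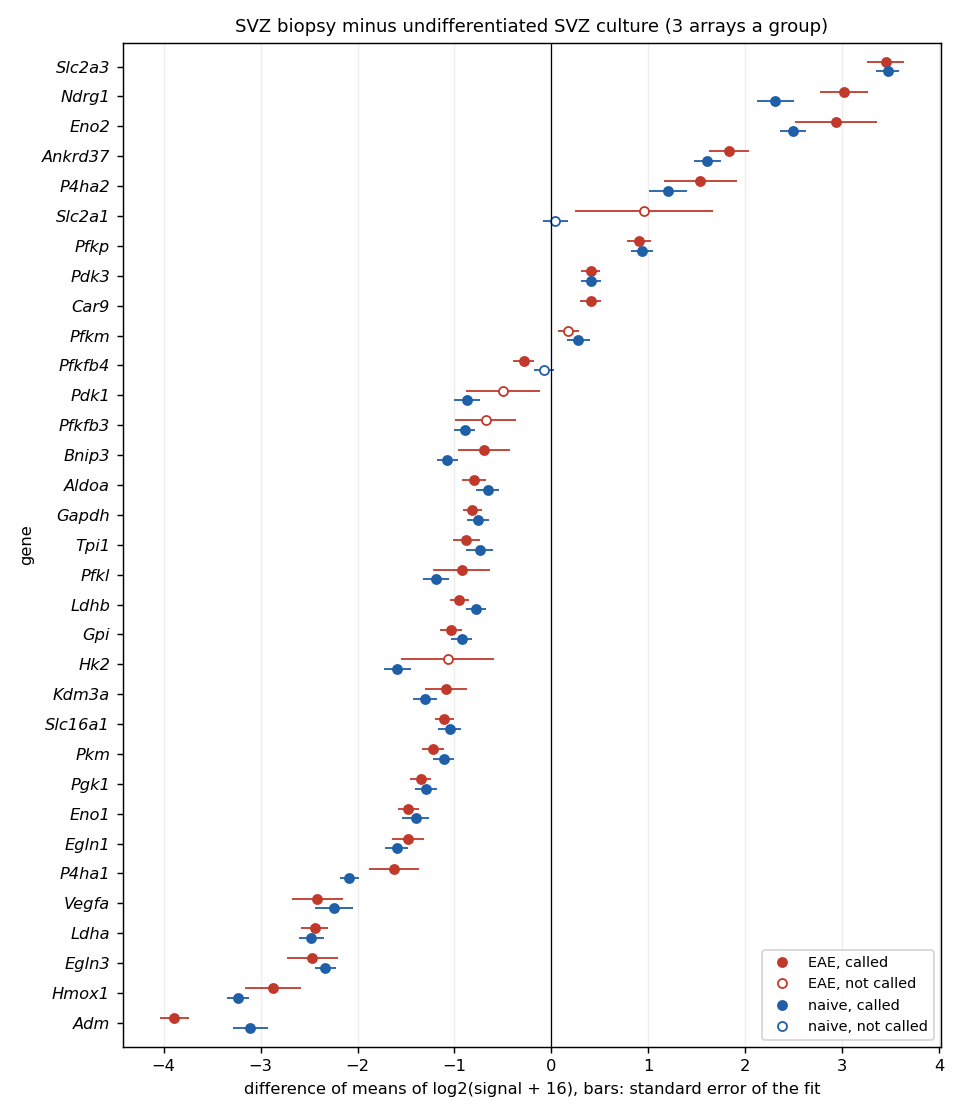
SVZ biopsy minus undifferentiated SVZ culture for each gene, in EAE (red) and naive (blue) samples, on the log2(signal + 16) scale. Bars are standard errors of the fit with 3 arrays a group and filled points are called genes. Slc2a3 is the highest point in both, at 3.45 in EAE and 3.47 in naive samples, and Adm and Hmox1 are the lowest.

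Over the 18 group means the genes whose pattern was most like that of Vegfa, by Pearson correlation among the probe sets with 1 symbol, were Mcph1 at 0.958, Fancc at 0.955, Atad5 at 0.952, Slc29a2 at 0.950 and Nek8 at 0.949. Vegfa was highest in undifferentiated cervical EAE cultures, with a mean of 2850.1, and lowest in differentiated caudal EAE cultures, with a mean of 71.2. Of the 34 members 9 had their highest group mean in undifferentiated cervical EAE cultures and 11 each had their lowest in differentiated caudal EAE cultures and in naive SVZ biopsies. The order of neighbouring cord groups carries little weight, since the arrays within them spread as given above.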

How the data were processed

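The labels name Affymetrix Expression Console, without a version, in the submitters' processing notes. Per the file headers, the deposited values are PLIER signals, linear intensity values summarised by the authors per gene-level probe set from perfect-match probes with GC-matched background, after global median normalization. Array model and genome build: not given in the sources used here. From these values log2(signal + 16) was computed for 27342 main probe sets. Two-sided limma tests (version 3.58.1 under R 4.3.3, functions lmFit and eBayes) were run per comparison, on the groups it concerns, over probe sets above 50 on at least 3 arrays, with Benjamini-Hochberg adjustment over all of them. A call needs a fold of 1.2 or more with an adjusted p no higher than 0.05, both limits from the series' design text. The fit was tested on simulated data.

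The members, the other gene lists and the tests were chosen with earlier results of these data known. In each comparison the text names called members, at most 8 rises and 8 falls, with values per array for chosen genes, at most 4 called genes of another list by smallest p, and the 5 genes most like Vegfa. Other genes named were chosen after their values were seen. Some lists are not reported here. Gene names and promoters came from RefSeq tables of assembly GRCr8. No 2 arrays held the same values (highest correlation 0.995). Same-numbered EAE and naive arrays of 1 region and stage did not all deviate together, so numbers were not taken to pair samples. Some other groups did, among them cervical and thoracic EAE cultures (correlations of 0.402 to 0.641) and differentiated and undifferentiated thoracic naive cultures (0.218 to 0.574).

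Alternatives were another offset, no signal filter, quantile normalization, scaling to the 75th percentile, all 18 groups in 1 fit, the replicate number as a block, the methods' t-test and each replicate left out. Dropping the arrays least like their group and a random block were added after seeing the data.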

Additional observations from a re-analysis of the deposited data

Results flagged for a closer look

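Effects that differed between groups by a test of the difference itself were found in 2 contrasts. The EAE effect in caudal cultures was set in undifferentiated against differentiated cultures. The limma contrast was called for 13 of 33 members (39.4%), where 3.11% of all probe sets were called. It was 3.48 for Slc2a3, 3.21 for Vegfa, 2.82 for Pdk1, 2.75 for P4ha2 and 2.52 for Pfkl on the log2(signal + 16) scale. It was 1.76 for Ldha, 1.56 for Slc16a3, 1.54 for P4ha1, 1.36 for Tpi1, 1.32 for Bnip3, 1.05 for Pgk1 and 1.02 for Slc2a1. It was -1.74 for Ndrg1.

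The differentiation effect in naive cord cultures minus that in naive SVZ cultures was -2.16 for Pfkm, -1.49 for Pfkp and -1.39 for Pdk3. With 9.09% of 33 members called, the share was near the 8.48% of all probe sets. The differentiation difference was negative for all 3 genes in naive cultures of each cord region, between -1.83 and -0.38, and in naive SVZ cultures it was 0.77 for Pfkm, -0.15 for Pfkp and 0.57 for Pdk3.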

How the results depend on the processing

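Counts of members called are given in order of the comparisons. Over the runs that each left out 1 replicate, the count lay between 0 and 0 in undifferentiated SVZ and cervical cultures, between 0 and 1 in thoracic cultures (0 with all arrays) and between 16 and 17 in caudal cultures (18). In differentiated cultures it lay between 0 and 1 in SVZ, 0 and 2 in thoracic and 0 and 6 in caudal cultures (0 each). The mean EAE effect gave 0 to 3 in undifferentiated (3) and 0 to 2 in differentiated cultures (2). Undifferentiated minus differentiated caudal gave 5 to 14 (13), differentiation in naive cultures 11 to 20 (25), its cord minus SVZ contrast 1 to 5 (3), and cord against SVZ in naive cultures 4 to 10 (15). With all 18 groups in 1 fit, the counts were 10 in undifferentiated caudal, 1 in differentiated SVZ, 3 in differentiated thoracic, 9 for the mean undifferentiated EAE effect and 1 for undifferentiated minus differentiated caudal. The methods' t-test gave 3 in undifferentiated caudal cultures, against 424 of all probe sets where limma gave 3027. Quantile normalization and 75th percentile scaling gave 6 each for the mean undifferentiated EAE effect. With the replicate number as a block, that count was 6 and the differentiated caudal count 2, and no other count moved by over 1.5 times. Without the arrays least like their group, chosen after seeing the data, the counts were 1 in undifferentiated thoracic, 1 in differentiated SVZ, 9 for the mean undifferentiated EAE effect, 1 for caudal minus the other regions and 12 for differentiation in cord minus SVZ. The random block of disease state and replicate number, also added later, gave 0 for the mean EAE effect in undifferentiated and 1 in differentiated cultures, and 1 for caudal minus the other regions. Of 2178 alternatives to 181 called gene values, 1940 kept direction and call, 237 lost the call and 1 reversed: Car9 in EAE biopsies against culture was at -0.12 after quantile normalization. Vegfa, Ldha and Slc2a3 kept their caudal call in all 14 alternatives. The causes were not tested. Signal over background limits what can be said of Car9, and of Adm and Hmox1 in biopsies. It also limits what can be said of Slc2a3 in SVZ cultures, and of Pdk1 and Slc16a3 in differentiated caudal cultures.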
